A study of Homo sapiens with 8 samples.

Results

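The 46 genes described here encode the proteins that license DNA replication origins, fire them and copy DNA at the fork, and all 46 were among the 28850 genes tested. They were chosen by name, through the RefSeq accession of their array probes, as the MCM helicase, the origin recognition complex (ORC), the loading factors CDC6 and CDT1 and their inhibitor geminin, CDC45 and GINS, the DBF4-dependent kinase, the replicative polymerases, the sliding clamp and its loaders, the Okazaki fragment enzymes, RPA and the fork protection factors. LNCaP, an androgen-sensitive line from a human prostate cancer metastasis and the single line on the arrays, was grown in RPMI-1640 with 10% fetal bovine serum. Its cells received 30 nM of siRNA against GATA2 (siGATA2) or control siRNA (siControl) with oligofectamine, and RNA was taken after 72 h. GATA2 is a zinc finger transcription factor, and the comparison asked how its silencing changed the transcriptome. Each group held 4 one-colour Agilent arrays. Nothing in the labels says that these came from separate cultures, so the p-values measure the spread between these arrays, which may be technical.

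DNA replication is prepared and started in separate phases of the cell cycle. In G1 phase ORC, CDC6 and CDT1 load the MCM2-7 ring onto origins, which is called licensing. In S phase CDC7 with DBF4, and the kinases of the cell cycle, turn the loaded rings into active helicases by adding CDC45 and GINS, and the polymerases, the clamp PCNA and the single-strand binding complex RPA then join the fork. Many of these genes are transcribed mostly in proliferating cells, in which E2F transcription factors are known regulators of them.

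Some facts of the arrays touch every value below. The GATA2 probe, the only 1 named for this gene, did not read lower on the arrays labelled siGATA2. Its log2 signals were 12.61, 12.54, 11.57 and 11.40 with siGATA2 and 11.74, 11.28, 11.10 and 11.29 with siControl, so the groups overlapped (log2 fold change 0.68, SE 0.31, limma adjusted p = 0.154). An exact two-sided permutation test of that difference gave p = 0.143, where 0.0286 is the smallest p that 4 against 4 arrays allow. With scaling to the E1A spike-in probes the log2 fold change was 0.03, and with siControl 1 also left out it was 0.55. Directions are therefore those of the arrays labelled siGATA2 and siControl. The paper reports a marked loss of GATA2 protein in LNCaP cells treated with siGATA2, which RNA arrays do not measure. The array siControl 1 stood apart, with 7 E1A spike-in probes averaging 11.13 on the log2 scale against 13.45 to 13.83 on the other arrays, and siControl 1 and 3 had the fewest probes well above background (28560 and 24438, against 34091 to 37033). All 11 markers of LNCaP or luminal prostate cells examined were above background on all 8 arrays, as were 5 of 16 markers of other cell types. Of the 14 of these 16 that could be tested, 2 were called lower and 2 higher. PDGFRB and VWF were lower (log2 fold changes -2.83 and -0.96), and PTPRC and CD68 were higher (0.87 and 2.00). The log2 of the summed signal of the 14, to which the brightest markers add most, ranged from 12.03 to 12.15 with siGATA2 and from 11.89 to 12.32 with siControl. KRT5 and COL3A1 lay under the filter on dim probes. The part of other cells in the results was not tested.

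Nearly all replication genes were lower on the siGATA2 arrays. At an adjusted p under 0.05 (limma, Benjamini-Hochberg over all genes tested) 42 of 46 were called lower, beside 14.2% of all genes. The number called higher was 0, beside 12.3% of all genes. At an unadjusted p under 0.05 (limma) the number higher was also 0, beside 5591 of the 28850 genes tested. With the added threshold of 2-fold, 36 were lower, beside 7.13% of all genes, and 0 were higher, beside 4.52%. The median log2 fold change, siGATA2 minus siControl, was -1.63 over the 46 genes and 0.09 over all genes tested. The log2 fold change was below 0 for all 46 genes and for 43.2% of all genes. In 43 of 46 genes every siGATA2 array read lower than every siControl array, a pattern shown by 16.5% of all genes. The exceptions were ORC2, POLD2 and RPA2. ORC2, POLD2, RFC1 and CHTF18 were not called. Without siControl 1 the number called lower was 43 and the median -1.70. With siControl 2 and 4 as the only control arrays they were 41 and -1.66. How many of all genes were called in either setting was not counted. The shares of all genes are over the 28850 tested, of which 17858 had a gene symbol. The rest were counted under the name in the array files and may not all be separate genes. RNA came from whole cultures, in which fewer cells in S phase and less RNA of the replication genes per cell cannot be told apart.

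**Figure D1:**
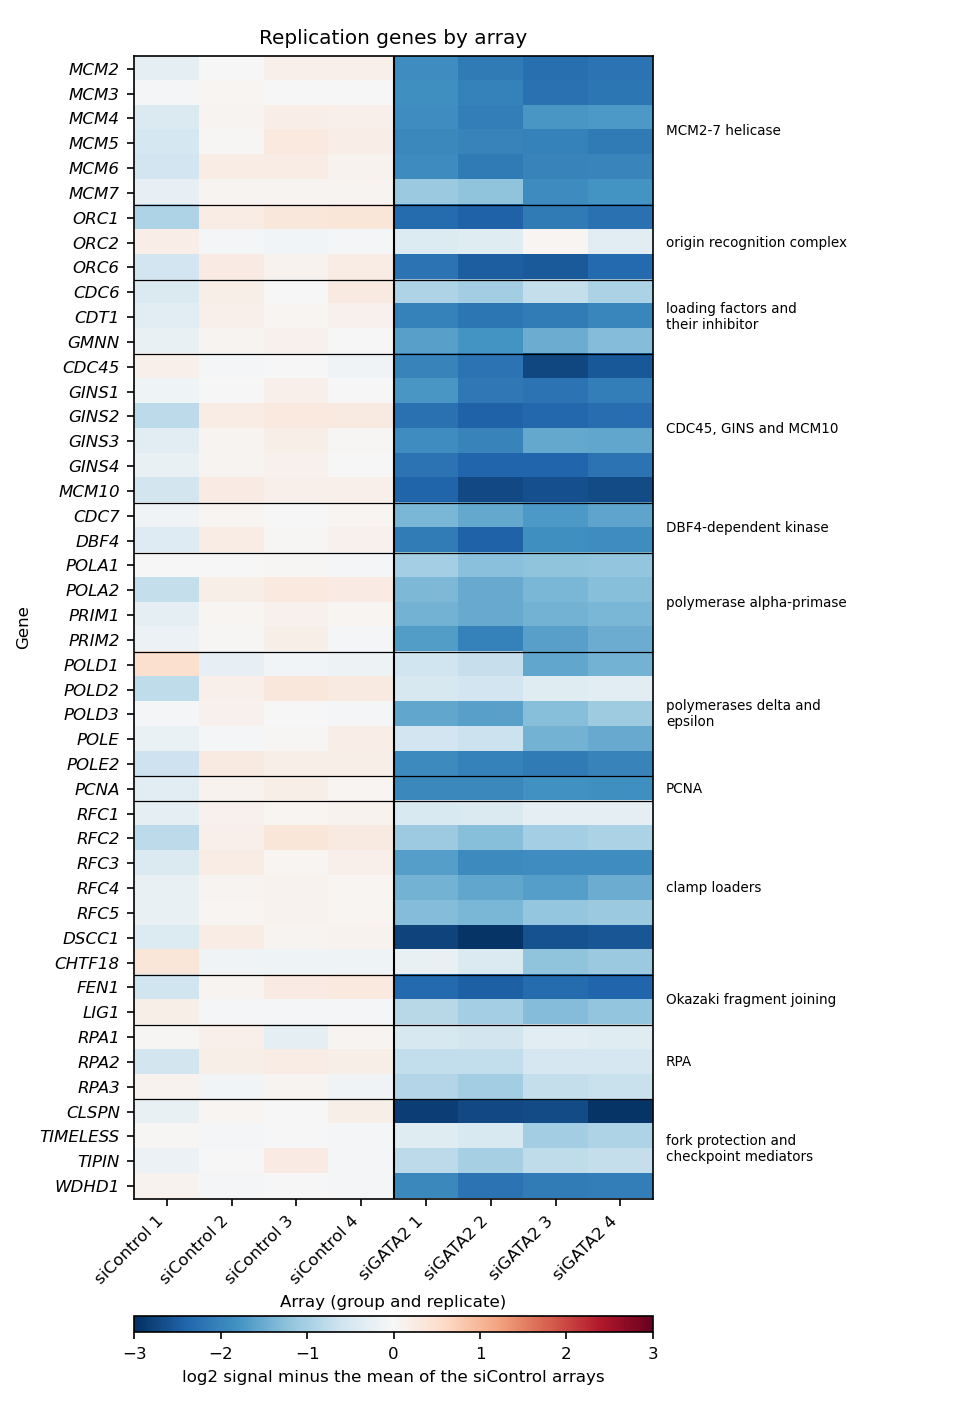
Log2 signal of each of the 46 genes (rows, grouped by role) on each array (columns), as the difference from the mean of the 4 siControl arrays, with blue for lower. The siGATA2 columns are blue in almost every row, with ORC2, POLD2, RFC1 and RPA1 close to white, and siControl 1 is pale blue in many rows.

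The genes did not fall equally. By role, the median log2 fold change was -2.30 for the 6 genes of CDC45, GINS and MCM10, -2.27 for the 3 ORC genes, -2.01 for MCM2-7, -1.88 for PCNA, -1.81 for the DBF4-dependent kinase and -1.72 for Okazaki fragment joining. It was -1.55 for the loading factors and geminin, -1.45 for the fork protection factors, -1.40 for polymerase alpha-primase, -1.24 for the clamp loaders, -1.07 for polymerases delta and epsilon and -0.62 for RPA. CLSPN (-2.79), DSCC1 (-2.72) and MCM10 (-2.61) had the largest falls of the 46 by the processed signal. With normexp background correction they lay at -1.01, -2.34 and -2.12, and the place of CLSPN, whose probe was dim, was lost. Ranked by the processed signal among all 28850 genes from the most negative log2 fold change upward they were at places 127, 138 and 171. None of the 46 was among the 100 lowest, 15 were among the 500 lowest and 23 among the 1000 lowest. Within the siGATA2 group, the median over the 46 genes, relative to the siControl mean, was -1.64, -1.85, -1.70 and -1.58 on arrays 1 to 4, and siControl 1 was at -0.26 against 0.08 to 0.10 on the other siControl arrays.

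**Figure D2:**
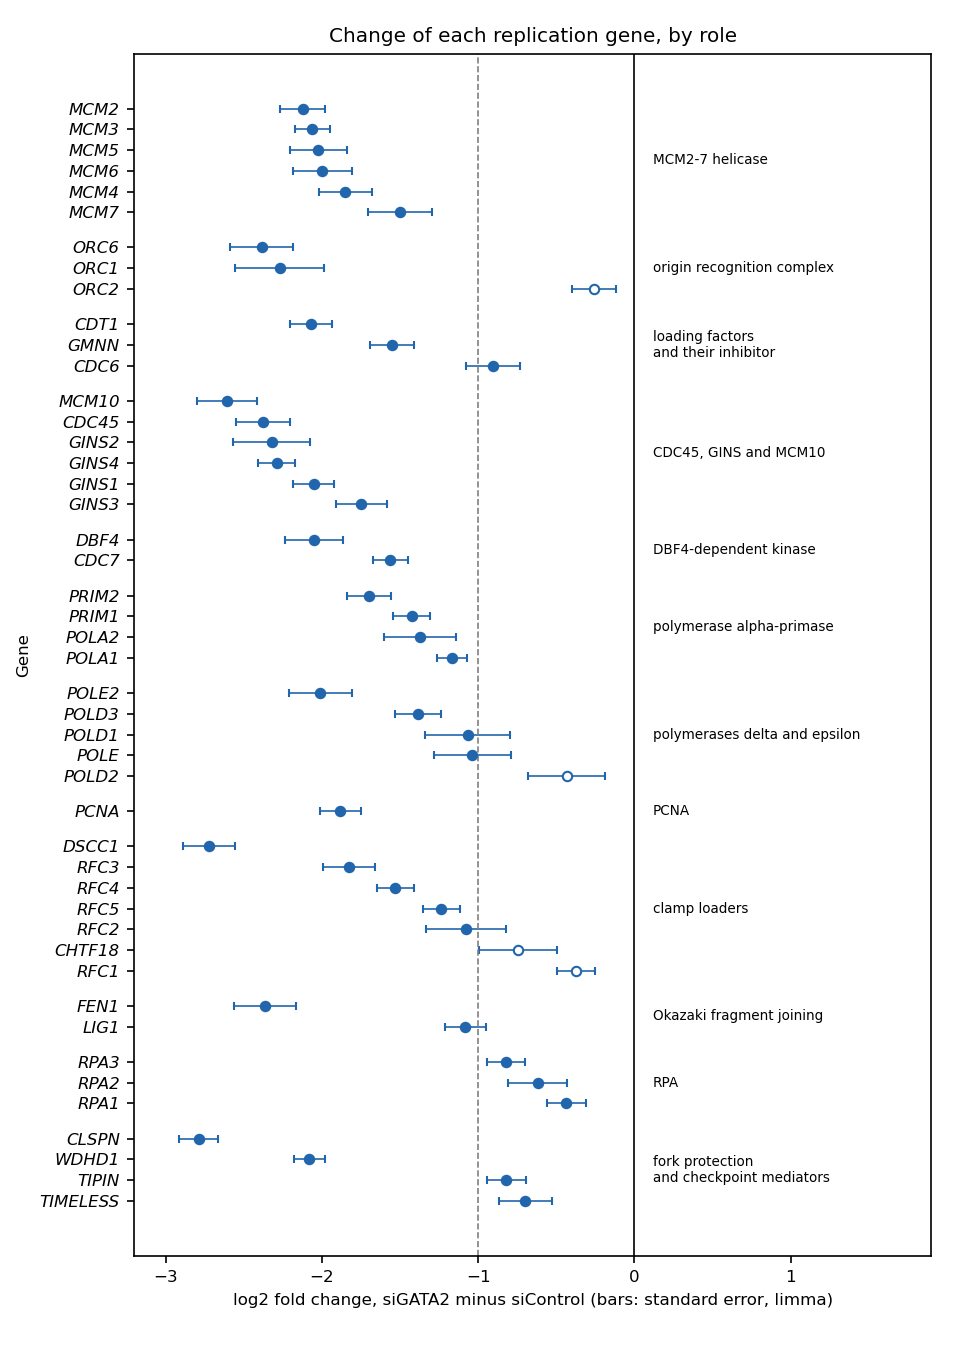
Log2 fold change, siGATA2 minus siControl, of each gene with its standard error from limma, grouped by role. Filled points were called lower at an adjusted p under 0.05, open points were not called, and the dashed line marks a 2-fold fall. The 4 open points are ORC2, POLD2, CHTF18 and RFC1, and the 3 RPA genes lie between the dashed line and 0.

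Since these genes moved together, their promoters were searched for the letters of well-known motifs. Windows from 250 bases before to 50 bases after the gene start were taken from RefSeq (GRCh38.p14), which matched 39 of the 46 genes. One of the 4 letter strings TTTGGCGC, TTTCCCGC, TTTCGCGC and TTTGCCGC, common forms of the site of E2F factors, occurred on either strand in 20 of the 39 (51.3%), in 3.99% of all 27305 genes with a window and in 5.75% of the 13921 of them that were tested here. All 20 were among the 35 genes with a window that were called lower, and 0 of the 4 not called held one. There were 28 matches, from 187 bases before to 7 bases after the start, 22 of them within 100 bases of it. In MCM2, MCM6 and TIPIN a forward and a reverse match overlapped. The letters CCAAT, bound by NF-Y, occurred in 24 of the 39 (61.5%, against 39.7% of all genes and 42.2% of those tested) and the GC box GGGCGG in 31 (79.5%, against 48.3% and 68.0%). The E-box CACGTG occurred in 6 (15.4%, against 8.77% and 11.3%) and the GATA letters AGATAA or TGATAA in 1, RFC3 (2.56%, against 19.4% and 14.6%), always on either strand. All 4 genes not called held both CCAAT and the GC box. The median log2 fold change with and without a match was -1.79 and -1.43 for the E2F-type strings, and the other way round -1.46 and -1.75 for CCAAT and -1.55 and -1.76 for the GC box. A match of letters is a description of the window and no evidence of binding.

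For each role with a match, the gene with the largest fall among those that hold one is printed, to show how alike the letters are across promoters of genes with different roles. Each stretch holds the match in capitals with 10 bases to each side, read along the strand of the gene, and in MCM2 the first of its overlapping matches is marked. They lie at chr3:127598403-127598430 on the plus strand (MCM2), chr16:88803744-88803771 on the plus strand (CDT1), chr16:85688968-85688995 on the minus strand (GINS2), chr1:91501034-91501061 on the plus strand (CDC7) and chr11:65261899-65261926 on the plus strand (POLA2). The others lie at chr14:49688202-49688229 on the minus strand (POLE2), chr20:5126664-5126691 on the minus strand (PCNA), chr13:33818084-33818111 on the plus strand (RFC3) and chr19:48170441-48170468 on the minus strand (LIG1).
MCM2: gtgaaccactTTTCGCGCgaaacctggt
CDT1: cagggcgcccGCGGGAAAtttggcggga
GINS2: tctcgccgtgGCGGGAAAacggcggccg
CDC7: tgcagttcctTTTCCCGCcccccttcgg
POLA2: tggctcccggTTTCGCGCatgcgtgcac
POLE2: tgcggcggtgGCGCCAAAtcgcaaatat
PCNA: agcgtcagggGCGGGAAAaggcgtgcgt
RFC3: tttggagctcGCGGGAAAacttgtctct
LIG1: cttcacccctTTTCCCGCcctcctccca

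The fork protection gene with a match and the largest fall was CLSPN. Its promoter is shown at length, as that of a gene called lower with a match, beside that of ORC2, a gene not called and without one. Both run from 250 bases before to 30 bases after the start, CLSPN at chr1:35769949-35770228, minus strand, and ORC2 at chr2:200963631-200963910, minus strand, and capitals again mark an E2F-type match. CLSPN holds 1, across its start, and ORC2 holds none of the 4 strings. Their GC contents were 64.6% and 61.1%.
CLSPN: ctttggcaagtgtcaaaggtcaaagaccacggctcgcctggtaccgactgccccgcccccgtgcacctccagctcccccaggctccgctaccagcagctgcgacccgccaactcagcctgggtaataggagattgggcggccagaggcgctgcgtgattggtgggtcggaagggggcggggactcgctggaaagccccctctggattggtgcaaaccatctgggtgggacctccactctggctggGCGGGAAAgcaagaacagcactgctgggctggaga
ORC2: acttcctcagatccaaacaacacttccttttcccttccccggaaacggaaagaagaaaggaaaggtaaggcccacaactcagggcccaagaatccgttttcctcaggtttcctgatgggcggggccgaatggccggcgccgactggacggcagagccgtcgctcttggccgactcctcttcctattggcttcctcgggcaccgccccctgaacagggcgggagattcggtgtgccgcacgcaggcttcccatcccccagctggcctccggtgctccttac

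The MCM2-7 ring is the core of the replicative helicase. All 6 subunits fell by at least 2-fold, from -1.50 for MCM7 to -2.12 for MCM2 on the log2 scale, and in each of them the groups did not overlap. Here and below, log2 signals are listed for arrays 1 to 4 of a group, and a level of one probe cannot be set against that of another. MCM2 had log2 signals of 11.91, 11.66, 11.52 and 11.56 with siGATA2 and 13.49, 13.77, 13.94 and 13.93 with siControl. It was 4.36-fold lower (log2 fold change -2.12, SE 0.14, adjusted p = 4.41e-05). MCM7, whose introns host several microRNAs, had log2 signals of 14.81, 14.72, 14.03 and 14.13 with siGATA2 and 15.68, 16.00, 16.01 and 16.00 with siControl (2.83-fold lower, log2 fold change -1.50, SE 0.21, adjusted p = 0.00118). Its siGATA2 values formed a higher pair on arrays 1 and 2 and a lower pair on arrays 3 and 4. The second MCM7 probe, which was dimmer, showed no such pairs, with 9.28, 9.23, 9.17 and 9.41, and a log2 fold change of -1.47. The log2 fold changes of MCM3 (-2.06), MCM4 (-1.85), MCM5 (-2.02) and MCM6 (-2.00) lay between them.

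ORC binds origins and starts licensing. ORC1, its largest subunit, and ORC6, its smallest, fell by more than 4-fold, and ORC2 did not pass the test. With normexp background correction the log2 fold change of ORC1 was -1.59. ORC1 had log2 signals of 6.13, 6.03, 6.33 and 6.20 with siGATA2 and 7.53, 8.68, 8.78 and 8.80 with siControl (4.83-fold lower, log2 fold change -2.27, SE 0.29, adjusted p = 0.000784). The siControl 1 value was more than 1 below the other siControl values and still more than 1 above every siGATA2 value. ORC6 had log2 signals of 9.01, 8.75, 8.70 and 8.89 with siGATA2 and 10.65, 11.47, 11.34 and 11.45 with siControl (5.23-fold lower, log2 fold change -2.39, SE 0.20, adjusted p = 0.000108). ORC2, a core subunit, had log2 signals of 10.52, 10.57, 11.00 and 10.59 with siGATA2 and 11.14, 10.86, 10.85 and 10.87 with siControl, and siGATA2 3 lay above 3 of the 4 siControl arrays (log2 fold change -0.26, SE 0.14, adjusted p = 0.225). A second ORC2 probe was not called either (log2 fold change -0.36, adjusted p = 0.0962, limma over all probes).

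The factors that bring MCM2-7 to origins fell to different degrees. CDT1, the loader that geminin holds in check, had log2 signals of 10.45, 10.32, 10.38 and 10.52 with siGATA2 and 12.15, 12.64, 12.55 and 12.61 with siControl and was 4.2-fold lower (log2 fold change -2.07, SE 0.14, adjusted p = 3.90e-05). GMNN, which encodes geminin, had log2 signals of 10.72, 10.55, 10.86 and 11.03 with siGATA2 and 12.11, 12.42, 12.47 and 12.36 with siControl and was 2.93-fold lower (log2 fold change -1.55, SE 0.14, adjusted p = 0.000158). Loader and inhibitor thus were both lower with no overlap of the groups. CDC6, the ATPase that works with ORC, had log2 signals of 6.56, 6.45, 6.77 and 6.53 with siGATA2 and 7.04, 7.66, 7.48 and 7.75 with siControl. It was called lower but under 2-fold (1.87-fold, log2 fold change -0.91, SE 0.17, adjusted p = 0.00603), and siControl 1 lay nearer to the siGATA2 arrays than the other siControl arrays did.

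CDC45 and GINS complete the active helicase, and MCM10 is needed for it to start moving. All 6 genes fell by more than 3-fold. MCM10 had log2 signals of 7.23, 6.93, 6.99 and 6.95 with siGATA2 and 9.07, 9.88, 9.77 and 9.79 with siControl and was 6.09-fold lower (log2 fold change -2.61, SE 0.19, adjusted p = 6.48e-05). GINS3, the least changed, had log2 signals of 10.02, 9.89, 10.36 and 10.33 with siGATA2 and 11.59, 11.97, 12.08 and 11.94 with siControl and was 3.36-fold lower (log2 fold change -1.75, SE 0.16, adjusted p = 0.000168). All siGATA2 values of both genes lay more than 1 under the lowest siControl value. The falls of CDC45 (-2.38), GINS1 (-2.05), GINS2 (-2.32) and GINS4 (-2.29) lay between them.

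The DBF4-dependent kinase phosphorylates the loaded MCM ring, with CDC7 as its catalytic and DBF4 as its regulatory subunit. Both fell by at least 2-fold. CDC7 had log2 signals of 10.19, 10.02, 9.83 and 9.97 with siGATA2 and 11.45, 11.61, 11.56 and 11.63 with siControl (2.95-fold lower, log2 fold change -1.56, SE 0.11, adjusted p = 5.33e-05), and DBF4 had 8.77, 8.43, 9.03 and 8.99 with siGATA2 and 10.48, 11.08, 10.90 and 10.98 with siControl (4.15-fold lower, log2 fold change -2.05, SE 0.19, adjusted p = 0.000158). The groups did not overlap for either subunit.

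Polymerase alpha-primase lays down the primers. All 4 subunits fell by at least 2-fold. PRIM2, the large primase subunit, had log2 signals of 9.11, 8.77, 9.16 and 9.31 with siGATA2 and 10.62, 10.82, 10.96 and 10.75 with siControl (3.25-fold lower, log2 fold change -1.70, SE 0.14, adjusted p = 0.000108), and all 3 of its probes were called lower. POLA1, the catalytic polymerase subunit, had log2 signals of 10.47, 10.23, 10.27 and 10.30 with siGATA2 and 11.48, 11.50, 11.51 and 11.45 with siControl (2.25-fold lower, log2 fold change -1.17, SE 0.10, adjusted p = 9.94e-05), with 4 siControl values that were nearly equal. POLA2 (-1.37) and PRIM1 (-1.43) lay between the others.

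Polymerases epsilon and delta extend the leading and the lagging strand, and of their 5 genes 4 were called lower by at least 2-fold. POLE2, the second subunit of polymerase epsilon, had log2 signals of 7.79, 7.67, 7.58 and 7.69 with siGATA2 and 9.08, 9.96, 9.86 and 9.88 with siControl (4.03-fold lower, log2 fold change -2.01, SE 0.20, adjusted p = 0.000246). POLE, its catalytic subunit, had log2 signals of 8.30, 8.22, 7.45 and 7.35 with siGATA2 and 8.66, 8.83, 8.90 and 9.07 with siControl (2.05-fold lower, log2 fold change -1.04, SE 0.25, adjusted p = 0.0163), with siGATA2 1 and 2 above siGATA2 3 and 4 by 0.86 on average. Without siControl 4 POLE missed the threshold (log2 fold change -0.96, adjusted p = 0.0507), as it did with 75th percentile or E1A scaling, and its second, dimmer probe was not called (-0.70, adjusted p = 0.154, limma over all probes). POLD1, the catalytic subunit of polymerase delta, showed the same pairs of siGATA2 arrays. Its log2 fold change was -1.07, and it missed the threshold without siGATA2 3 (-0.90, adjusted p = 0.0512, limma) and without siGATA2 4 (-0.95, adjusted p = 0.0577, limma). POLD2 had log2 signals of 13.10, 13.01, 13.22 and 13.27 with siGATA2 and 12.81, 13.74, 13.92 and 13.86 with siControl and was not called (log2 fold change -0.43, SE 0.25, adjusted p = 0.242). Its lowest value of all 8 arrays was that of siControl 1, and without that array its log2 fold change was -0.69 (adjusted p = 0.00358, limma). POLD3 had a log2 fold change of -1.38.

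PCNA, the sliding clamp that holds the polymerases on DNA, had log2 signals of 12.58, 12.57, 12.70 and 12.68 with siGATA2 and 14.19, 14.61, 14.68 and 14.57 with siControl and was 3.69-fold lower (log2 fold change -1.88, SE 0.13, adjusted p = 4.64e-05). The siGATA2 arrays lay close together and far under every siControl array. All 3 of its probes were called lower.

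Clamp loaders open PCNA and place it on DNA. RFC1 is the large subunit of the main loader, RFC2 to RFC5 are the small subunits shared with other loaders, and DSCC1 and CHTF18 belong to an alternative loader. The groups did not overlap for any of the 7 genes, and 5 were called lower, all by at least 2-fold. DSCC1 had log2 signals of 7.45, 7.29, 7.62 and 7.66 with siGATA2 and 9.81, 10.44, 10.31 and 10.34 with siControl (6.6-fold lower, log2 fold change -2.72, SE 0.17, adjusted p = 3.00e-05). RFC1 had log2 signals of 11.88, 11.89, 12.04 and 12.03 with siGATA2 and 12.06, 12.45, 12.38 and 12.43 with siControl and was not called (log2 fold change -0.37, SE 0.12, adjusted p = 0.0571). Without siControl 1, its lowest control array, RFC1 passed the threshold (log2 fold change -0.46, adjusted p = 0.0107, limma). CHTF18 (log2 fold change -0.74, SE 0.25, adjusted p = 0.0629) passed without siGATA2 1 (log2 fold change -0.93, adjusted p = 0.0292, limma), and RFC2 (-1.08) missed it without siControl 4 (log2 fold change -0.98, adjusted p = 0.0506, limma). RFC3 (-1.83), RFC4 (-1.53) and RFC5 (-1.24) were called.

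Okazaki fragments are trimmed by FEN1 and joined by LIG1. FEN1 had log2 signals of 9.37, 9.25, 9.41 and 9.33 with siGATA2 and 11.10, 11.79, 11.95 and 11.99 with siControl (5.15-fold lower, log2 fold change -2.36, SE 0.20, adjusted p = 0.000115). LIG1 had log2 signals of 10.66, 10.49, 10.21 and 10.32 with siGATA2 and 11.67, 11.44, 11.45 and 11.44 with siControl (2.12-fold lower, log2 fold change -1.08, SE 0.13, adjusted p = 0.000627). Both were called lower by at least 2-fold, with no overlap of the groups.

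RPA coats single-stranded DNA in replication and in repair. Its 3 genes were called lower, none by 2-fold, and of all genes called lower RPA1 and RPA2 kept their call in the fewest alternatives. RPA3, the small subunit, had log2 signals of 14.02, 13.87, 14.20 and 14.23 with siGATA2 and 15.01, 14.83, 14.99 and 14.79 with siControl (1.77-fold lower, log2 fold change -0.82, SE 0.12, adjusted p = 0.00173). RPA1, the large subunit, had log2 signals of 14.08, 13.99, 14.21 and 14.19 with siGATA2 and 14.58, 14.71, 14.29 and 14.63 with siControl (1.35-fold lower, log2 fold change -0.44, SE 0.12, adjusted p = 0.0348), and siControl 3 lay just above the highest siGATA2 value. RPA2 had a log2 fold change of -0.62 (adjusted p = 0.0469, limma), and its siControl 1 value lay among the siGATA2 values. A second RPA2 probe was not called (log2 fold change -0.57, adjusted p = 0.139, limma over all probes). RPA1 missed the threshold when any 1 array other than siControl 3 was left out, with log2 fold changes from -0.46 to -0.38, and RPA2 when any 1 array other than siControl 1 was left out, with log2 fold changes from -0.66 to -0.54.

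Fork protection and checkpoint mediators keep helicase and polymerase coupled and pass on the signal of a stalled fork. CLSPN encodes claspin, which brings CHEK1 to its kinase ATR. It had log2 signals of 3.85, 3.96, 3.99 and 3.72 with siGATA2 and 6.44, 6.73, 6.66 and 6.84 with siControl (6.91-fold lower, log2 fold change -2.79, SE 0.12, adjusted p = 1.33e-05), and its groups were further apart than those of any other gene of the 46. Its probe was dim, being well above background on 3 of 4 arrays in each group, and with normexp background correction its log2 fold change was -1.01. TIMELESS had log2 signals of 13.54, 13.45, 12.87 and 12.97 with siGATA2 and 13.94, 13.88, 13.93 and 13.88 with siControl (1.62-fold lower, log2 fold change -0.70, SE 0.17, adjusted p = 0.0182). TIPIN, its binding partner, had log2 signals of 12.28, 12.08, 12.31 and 12.36 with siGATA2 and 12.89, 13.08, 13.32 and 13.01 with siControl (1.76-fold lower, log2 fold change -0.82, SE 0.13, adjusted p = 0.0022). TIMELESS showed the pairs of siGATA2 arrays seen for POLE and TIPIN did not. WDHD1, which links helicase and polymerase alpha, had a log2 fold change of -2.08.

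On the siGATA2 arrays 1 and 2, 6 genes differed from arrays 3 and 4 by more than 0.5 on the log2 scale. They were POLE (0.86), POLD1 (0.85), CHTF18 (0.83), MCM7 (0.68), TIMELESS (0.58) and CDC45 (0.53), all with the higher signal on arrays 1 and 2. The GATA2 probe differed between the same arrays by 1.09. The titles give siGATA2 arrays 1 to 4 the letters A, B, E and F, with no meaning stated. The labels name no other difference between these arrays, and the part of such a difference was not tested. Over the genes tested, deviations from the group mean on siGATA2 1 and 2 each correlated at 0.54 with those on siControl 1. Those on siGATA2 3 and 4 correlated with siControl 1 at -0.53 and -0.50. A source shared by siControl 1 and siGATA2 1 and 2 was not tested.

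Partners within a complex or a regulatory pair were compared on each array, which removes any scaling of the array as a whole. For 4 of 6 pairs the difference between the partners changed between groups, by an exact two-sided permutation test (p = 0.0286 each, adjusted p = 0.0429 over the 6 pairs). The pairs were chosen with earlier results of these data known, so these p-values describe the arrays and are no independent support. ORC1 relative to ORC2 averaged -4.49 ± 0.13 with siGATA2 and -2.48 ± 0.75 with siControl (SD, n = 4), a difference of -2.01. PCNA relative to RFC1 averaged 0.67 ± 0.02 and 2.18 ± 0.08, a difference of -1.51. POLE relative to POLE2 averaged 0.15 ± 0.45 and -0.83 ± 0.30, a difference of 0.97, so the catalytic subunit fell less. The values on siGATA2 1 to 4 were 0.51, 0.55, -0.13 and -0.34, with the same pairs of arrays as POLE itself. Those of siGATA2 3 and 4 lay near the highest siControl value, -0.42 on siControl 1. CDT1 relative to GMNN averaged -0.37 ± 0.15 and 0.15 ± 0.10, a difference of -0.52, so the loader fell more than its inhibitor. For CDC7 and DBF4 the groups overlapped and the difference of 0.49 missed the threshold (exact permutation p = 0.0571, adjusted p = 0.0686). For TIMELESS and TIPIN it was 0.12 (exact permutation p = 0.629). With any 1 array left out, none of the 4 passed the threshold, with adjusted p-values from 0.0571 to 0.0857 (exact permutation), and with normexp background correction the difference for ORC1 and ORC2 was -1.33.

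**Figure D3:**
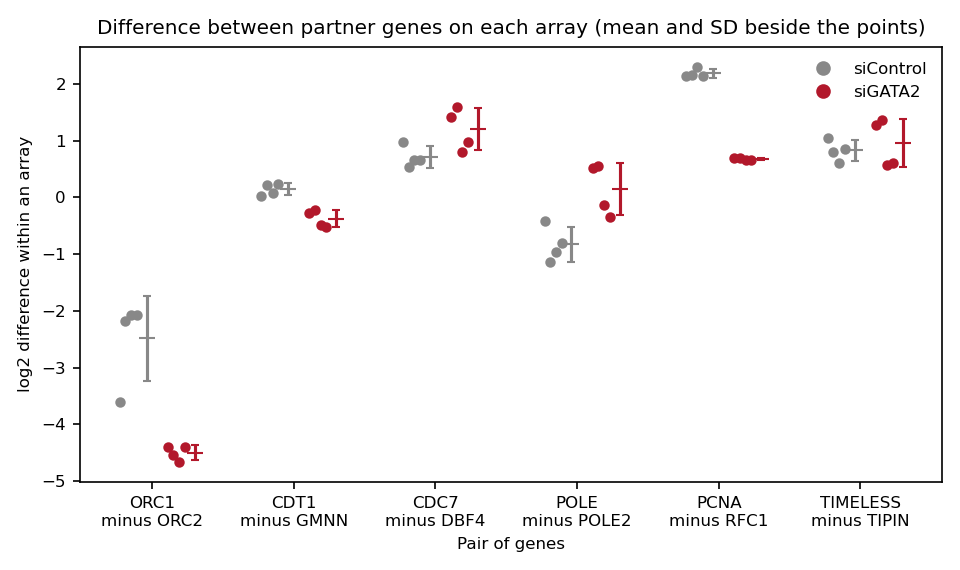
Difference in log2 signal between the partners of 6 pairs on each array, siControl in grey and siGATA2 in red, with the mean and SD of each group beside its points. The groups are apart for ORC1 and ORC2, CDT1 and GMNN, POLE and POLE2 and PCNA and RFC1, and overlap for CDC7 and DBF4 and for TIMELESS and TIPIN.

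A further 44 genes of the replication machinery, outside the 46, were counted in the same fit. Of these, 22 were called lower, 3 higher and 19 were not called, 17 were lower by at least 2-fold and 1 higher, and the median log2 fold change was -0.63. Over all genes tested 14.2% were called lower and 12.3% higher, and 7.13% and 4.52% by at least 2-fold. The histone chaperones at forks had 6 of 8 genes called lower and the other clamp loading factors 3 of 3. The ATR checkpoint had 2 of 8 lower and 1 higher, and the topoisomerases 1 of 3 lower. ASF1B, a histone chaperone, had log2 signals of 8.51, 8.38, 8.45 and 8.48 with siGATA2 and 11.27, 11.87, 12.09 and 12.02 with siControl (10.2-fold lower, log2 fold change -3.36, SE 0.19, adjusted p = 2.27e-05). TICRR, which brings initiation factors to the MCM ring, had log2 signals of 6.21, 6.10, 5.82 and 5.75 with siGATA2 and 7.90, 8.66, 8.43 and 8.65 with siControl (5.43-fold lower, log2 fold change -2.44, SE 0.20, adjusted p = 0.000101). CHEK1, the checkpoint kinase downstream of claspin, was 4.9-fold lower (log2 fold change -2.29, SE 0.21, adjusted p = 0.000164).

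The 3 genes called higher were POLD4, ORC4 and ATR. POLD4, the small subunit of polymerase delta, had log2 signals of 15.56, 15.51, 15.71 and 15.66 with siGATA2 and 14.69, 14.46, 14.46 and 14.34 with siControl (log2 fold change 1.12, SE 0.11, adjusted p = 0.000241). ORC4 had a log2 fold change of 0.55 (adjusted p = 0.0321, limma), and ATR of 0.52 (adjusted p = 0.0111, limma). With E1A spike-in scaling ORC4 and ATR lay at -0.08 and -0.13 and POLD4 at 0.38, and none of the 3 was called. With siControl 1 also left out, ORC4 and ATR lay at 0.25 and 0.31 and were not called, and POLD4 kept its call. ORC4 was not called either when any 1 array other than siGATA2 1 or 2 was left out, with log2 fold changes from 0.47 to 0.60.

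**Figure D4:**
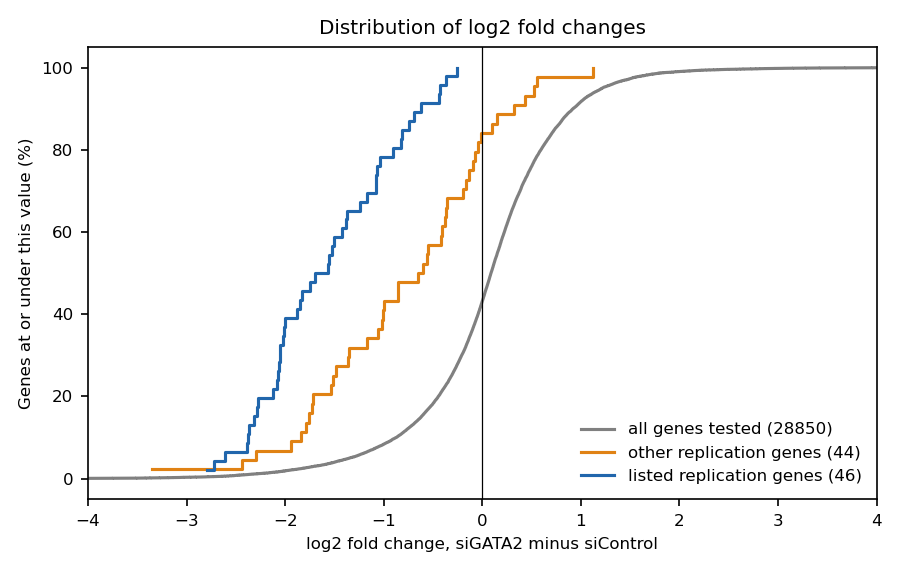
Share of genes (vertical axis, %) with a log2 fold change at or under the value on the horizontal axis, for the 46 listed replication genes, the 44 other replication genes and all 28850 genes tested. The curve of the 46 genes reaches 100% before 0, with a median of -1.63, and that of the other replication genes runs between it and the curve of all genes, whose median is 0.09.

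The scale of the fall depended on how the arrays were brought to one level. Scaling to the E1A spike-in probes moved the median over all genes from 0.09 to -0.43 and that of the replication genes from -1.63 to -2.27, and 34 of 46 were then called lower. The 8 genes that lost their call under that scaling were CDC6, POLD1, POLE, RPA1, RPA2, RPA3, TIMELESS and TIPIN, each with a more negative log2 fold change than before. With E1A scaling and siControl 1 left out, the medians were -0.0057 over all genes and -1.94 over the replication genes. There 43 of 46 were called lower, and POLE and RPA1 lost their call. The share of all genes called was not counted under either E1A scaling. With slide row as a block POLD1, RFC2, RPA1 and RPA2 lost theirs, and with siControl 2 and 4 as the only control arrays POLD1, POLE and TIMELESS did. Relative to the median over all genes, the replication genes lay between -1.94 and -1.52 in all 21 ways of processing that gave both medians.

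**Figure D5:**
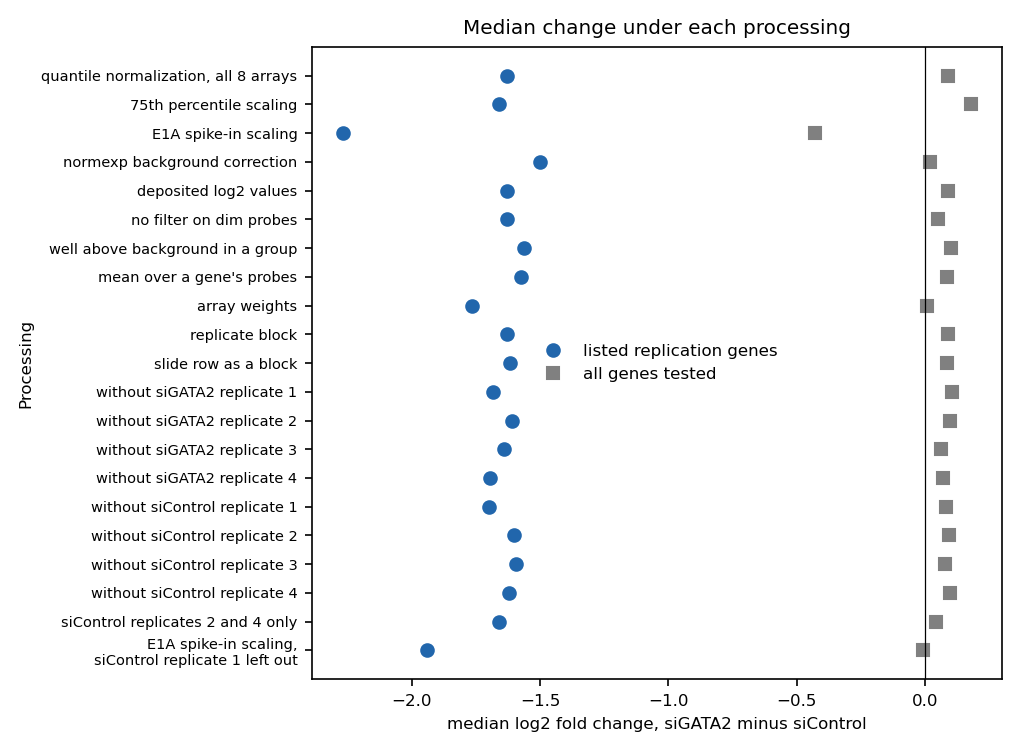
Median log2 fold change, siGATA2 minus siControl, of the 46 listed replication genes (blue circles) and of all genes tested (grey squares) under each way of processing. The blue circles lie between -2.27 and -1.50 and the grey squares between -0.43 and 0.18, and E1A scaling with all arrays moves both to the left.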

How the data were processed

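RNA of LNCaP cells was measured on 8 one-colour arrays, 4 per group, all on 1 slide, and groups and replicate numbers were read from the labels of the samples. Slide row 1 held siGATA2 1, 2 and 3 and siControl 4, and row 2 held siGATA2 4 and siControl 1, 2 and 3. Group and slide row thus coincided in large part. For each spot the authors deposited an intensity, corrected for background by Agilent Feature Extraction 11.0.1.1 (the processed signal), and they added a table of log2 values after quantile normalization. The array files name another array design than the methods do, so probes were named from the accession in the files through RefSeq (GRCh38.p14), which gave 26364 of 42405 probes a symbol.

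Processed signals were taken to log2, spots with an outlier flag were dropped, replicate spots were averaged and quantile normalization was applied across all 8 arrays. Probes that lacked annotation or averaged less than 3 (log2) were left out, so 35514 were kept, and each gene was read from its brightest probe, which can hide probes that differ. Groups were compared with lmFit and eBayes of limma 3.58.1 (R 4.3.3), which was tested on simulated data, and a gene was called at a Benjamini-Hochberg adjusted p under 0.05. Pairs were tested by exact permutation in Python 3.11.15. Arrays have no read depth, and their number limits the precision.

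The 46 genes, the other lists and the pairs were chosen with earlier results of these data known. Signals on every array are given for the genes of each role with the largest and the smallest fall, for the genes of the pairs and for genes with a probe called lower by 2-fold and another not called. Of the other replication genes, those with the largest changes are named. Alternatives covered scaling, background correction, filters, the authors' own log2 table, an intensity trend, the methods' t-test, array weights, blocks and left-out arrays.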

Additional observations from a re-analysis of the deposited data

Results flagged for a closer look

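Of 106 groups of 4 arrays examined, 19 had 1 array far from the other 3, where chance alone would give about 1 in 20. In 18 of them the array was siControl 1, which was lower than the other siControl arrays in 15. Log2 signals of siControl 1 below the others were 12.4 for MCM6, 15.68 for MCM7, 7.53 for ORC1, 10.65 for ORC6, 11.99 for GINS2, 9.07 for MCM10, 9.19 for POLA2 and 10.94 for PRIM1. Below the others were also 12.81 for POLD2, 9.08 for POLE2, 11.11 for RFC2, 13.21 for RFC4, 12.69 for RFC5, 12.69 for RPA2 and 9.95 for CHEK1. It was above the others for ORC2 (11.14), CHTF18 (13.68) and LIG1 (11.67). The remaining value was ORC2 on siGATA2 3 (11.00, against 10.52 to 10.59 on the other siGATA2 arrays). Over the 46 replication genes siControl 1 was the lowest siControl array for 36 and the highest for 8, and it still lay above all 4 siGATA2 values for 44. The part of siControl 1's low spike-in signal in these values was not tested.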

How the results depend on the processing

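Over the alternatives, 34 to 45 of the 46 genes were called lower, 33 to 40 by at least 2-fold and 0 higher. With 1 array left out 38 to 43 were called lower and 34 to 36 by at least 2-fold. The shares of all genes called were not counted under the alternatives. A change in these counts can therefore not be set against a change over all genes. Of 1011 values of single genes under 22 alternatives, 952 kept their call and direction, 41 lost and 18 gained a call, and 0 reversed. The median of the replication genes was -2.27 with E1A scaling and -1.94 with E1A scaling without siControl 1, a setting chosen after seeing the data. Of the other replication genes 3 were called higher, against 0 with E1A scaling, 1 with it without siControl 1, 1 with slide row as a block and 1 at an adjusted p under 0.01, and ORC4 (-0.080) and ATR (-0.13) reversed with E1A scaling. The GATA2 signal was 1.10 higher with array weights (adjusted p = 0.00194, limma). Replicate numbers did not pair the arrays, as numbered partners correlated at 0.54, -0.31, 0.17 and 0.22. The sample titles also carry letters, with no meaning given. The letter B was shared by siGATA2 2 and siControl 1 (correlation 0.54) and F by siGATA2 4 and siControl 3 (0.135). A pairing by letter was not tested. With siControl 1 the correlations of siGATA2 1 to 4 were 0.54, 0.54, -0.53 and -0.50. With each other siControl array their signs were the other way round. With the replicate block 42 genes were called lower and 36 by 2-fold, RPA1 lost its call, and the 4 pair differences were as before (-2.01, -0.52, 0.97 and -1.51) at an adjusted p of 0.15, the exact permutation being too small to pass. ORC1 and ORC2, CDT1 and GMNN, POLE and POLE2, and PCNA and RFC1 also missed the threshold with the mean over probes (-1.96, -0.52, 1.14 and -1.47), within slide rows (-2.12, -0.60, 0.80 and -1.50) and with siControl 2 and 4 as the only controls (-2.35, -0.61, 1.12 and -1.46). Within slide rows and with siControl 2 and 4 only, the exact permutation was again too small to pass, whatever the values. With normexp these 4 pairs passed, and ORC1 and ORC2 moved to -1.33. With 1 array left out the 4 pairs ranged from -2.40 to -1.85, -0.57 to -0.47, 0.85 to 1.13 and -1.53 to -1.47. TIMELESS and TIPIN changed sign within slide rows (-0.0057) and ranged from -0.013 to 0.25 with 1 array left out.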
